A study of Drosophila melanogaster with 48 samples.

Results

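The set described here holds 279 genes from pull-downs of ribosomes tagged mainly in fly astrocytes. The mRNA of each had its fitted daily peak in the hours after subjective dawn. The 279 were chosen from the 9392 genes with a mean of 20 counts or more per library among 17558 annotated genes. The choice rested on the counts themselves. For each gene, log2 of the normalized read count plus 1 was fitted by least squares with a term for biological replicate and with the cosine and sine of a 24 h cycle. Genes were kept when the unadjusted F-test p for cosine and sine was under 0.05 and the fitted peak lay from 0 to under 6 h, where 0 h is the start of the subjective day. This gave 298 genes (3.17% of the genes tested), of which 19 that the study's article names were left out. With a peak at any hour, 774 genes (8.24%) had a p under 0.05, and those outside the early-day hours peaked at 6 to 12 h for 121 genes, at 12 to 18 h for 219 and at 18 to 24 h for 136. After Benjamini-Hochberg adjustment of the same p-values over all genes, 59 genes and 25 of the 279 stayed under 0.05. The same terms fitted on the counts with edgeR had an adjusted p under 0.05 in 21 of the 279 genes (0.586% of all genes tested, 0.298% with a peak in these hours) and an unadjusted p under 0.05 in 230 (2.77% of all genes, with a peak in these hours). The set is therefore a list of early-peaking profiles, most of which do not pass an adjusted test of rhythm. Because these values chose the genes, amplitudes, peak times and contrasts between early day and night are given as a description and are not tested.

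Each sample came from about 200 heads of flies that carried elav-Gal80 and eaat1-Gal4 together with UAS-EGFP-L10a, so that a tagged ribosomal protein, L10a, was made mainly in astrocytes and could be pulled down with its bound mRNA (TRAP). The eaat1 driver is mainly astrocytic but also reaches some cortex glia, and elav-Gal80 blocks it in neurons. All samples share this genotype, and no sample from input RNA or from flies without the tag was analysed here. After entrainment to 12:12 light-dark cycles the flies were held in constant darkness (DD). Heads were collected at 4 h intervals up to 44 h of DD, so each of the 2 biological replicates, which came from independent crosses, has 12 libraries. The sex and age of the flies used for TRAP are not given in the sources used here.

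Circadian clocks in flies run on a feedback loop in which the proteins PERIOD and TIMELESS shut off their own transcription, and many output genes follow this loop at other phases of the day. Astrocytes take up transmitters, handle lipids and sugars for neurons and detoxify reactive compounds, and their own clocks are known to affect behavior. Ribosome-bound mRNA stands closer to protein synthesis than total RNA does, but it reflects both the amount of an mRNA and its loading onto ribosomes. In pulled-down bulk RNA, fewer cells of a type and less RNA per cell cannot be told apart.

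Libraries held from 6371034 to 37267216 counts on genes. A library at 28 h in replicate 1 rests on 1 of its 2 sequenced data sets, since the other holds 91 counts. The 28 h library of replicate 2 stood apart, with 49.6% of its counts in its 10 most abundant genes, against 9.2% to 14.6% in the others. The 16 h library of replicate 1 carries a label of the style used in replicate 2. Both are at hours that weigh on early-day peaks. Without the 28 h library 261 genes passed the rule, 217 of them among the 279. Without the 16 h library 348 passed (220 shared), and without both 306 passed (187 shared). Labels of replicate 1 carry the letter b at 4, 12, 20 and 28 h and the letter a at its other hours except 16 h. In replicate 2 each data set has the same letter at all hours. What the letters stand for is not given in the labels, and their part in the profiles was not tested. Of the astrocyte markers chosen, only e (ebony, a beta-alanyl-amine synthase of glia) could be paired with an identifier, and its normalized count ranged from 327 to 1083 over the 24 libraries. The median of e was 608 in the early-day libraries (0, 4, 24 and 28 h) and 415 in the opposite ones (12, 16, 36 and 40 h), with a fitted peak at 2.88 h and an amplitude of 0.25 ± 0.10, and e did not meet the rule's p. This marker of the labelled cell type was thus higher in the same hours as the set, and its part in the profiles was not tested. Neuronal, fat body and muscle markers could not be paired, so the labelled cell type was checked only in part.

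Library by library, the median of the 279 genes was above the replicate mean in early day and below it in early night, in both replicates and on both days. The median gene stood 0.33 above its own replicate mean (log2) in replicate 1 at 4 h, and 0.41 above in replicate 2. At 28 h these values were 0.30 and 0.35. The median gene stood 0.40 below its mean at 16 h in replicate 1 and 0.29 below in replicate 2, and at 40 h 0.29 and 0.25 below. At 4 h in replicate 2, 264 genes (94.6%) were above their mean, and at 40 h in the same replicate 44 (15.8%). The median of all 9392 genes stayed between -0.06 and 0.105 in every library, which the size factors largely fix. The last library, 44 h of replicate 2, was lower than its partner, at -0.30 against -0.09, and was the lowest of all 24 libraries for 54 genes (19.4%). Its median was also the lowest of replicate 2, though it lies in late night. In the same replicate the median at 12 h was only -0.03, and at 24 h it was 0.095, below 8 h (0.113) and 32 h (0.117).

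**Figure D1:**
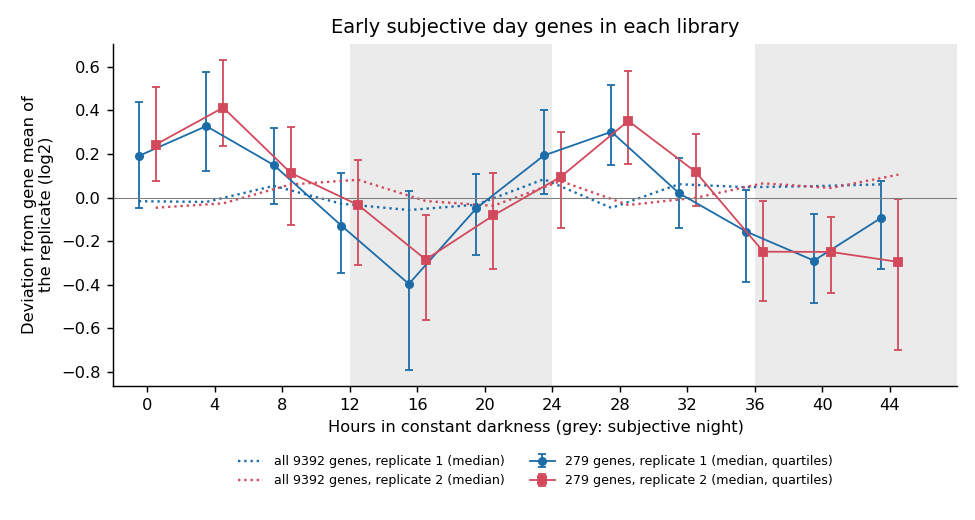
Deviation of each gene from its mean in the same replicate (log2, y axis) against hours in DD (x axis), as the median of the 279 genes with quartile bars for replicate 1 (blue circles) and replicate 2 (red squares), and as the median of all 9392 genes (dotted). The 279 genes are highest at 4 and 28 h and low at 16 and 40 h in both replicates. The dotted lines stay near 0, which the size factors largely fix.

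The highest and lowest values of the genes were spread over many libraries. Among the 8 early-day libraries (0, 4, 24 and 28 h), the highest value came from 4 h of replicate 2 for 60 genes (21.5%) and from 28 h of replicate 2 for 53 (19.0%), and the other 6 libraries gave the highest value for 14 to 44 genes each. Among the 8 opposite libraries (12, 16, 36 and 40 h), the lowest value came from 16 h of replicate 1 for 57 genes (20.4%) and from 16 h of replicate 2 for 54 (19.4%).

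Fitted peaks were not spread evenly over the 6 hours. There were 21 genes from 0 to 1 h, 21 from 1 to 2 h, 44 from 2 to 3 h, 62 from 3 to 4 h, 70 from 4 to 5 h and 61 from 5 to 6 h, with a median of 3.88 h. Amplitude, the log2 distance from the mean to the peak, ran from 0.12 to 1.76 with a median of 0.35, which is a peak 1.61 times the trough. It reached 0.5 in 48 genes and 1 in 5 genes, and it hardly varied with peak hour (medians of 0.32 to 0.37). Genes peaking before 2 h were the more abundant ones: the median of their mean counts was 511 (0 to 1 h) and 659 (1 to 2 h), against 238 to 264 in the later hours. At the edges of the rule, the members nearest to the p limit had p of 0.049 and 0.0492, and CG6836 and Hers just missed it at 0.0501 and 0.0502. ATPsynbeta (0.14 h) stood just inside the limit of 0 h, and a gene at 23.9 h just outside. OS9 and CG10962 (both 5.99 h) stood just inside the limit of 6 h, and Gcn2 (6.07 h) just outside. PK1-R was the least abundant member, with a mean of 25.6 counts.

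**Figure D2:**
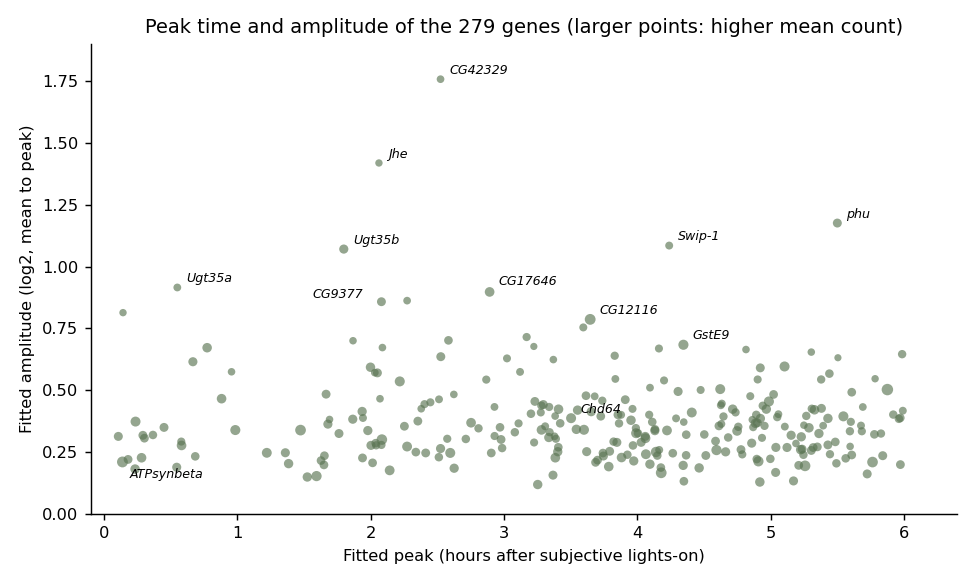
Fitted amplitude (log2, y axis) against fitted peak (hours after subjective lights-on, x axis) of the 279 genes, with larger points for genes of higher mean count. Most genes lie under an amplitude of 0.5, and CG42329, Jhe, phu, Swip-1 and Ugt35b lie above 1.

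In 10 of the 279 genes (3.58%), all 8 early-day libraries were above all 8 opposite libraries, and these were the only 10 such genes among all those tested (0.106%). They were Ugt35b, CG42329, CG13283, CG4825, CG9377, Drak, Jhe, Invadolysin, CG31207 and CG5849, and 7 of them are among the 12 genes of smallest p. Invadolysin, CG31207 and CG5849 are named for this count only. The rule used the same contrast, so nothing is read from these shares. Of the 279 genes, 225 had a symbol in the tables used here, against 1778 (18.9%) of all genes tested, because the available name tables lean toward genes with rhythms. How many genes of a pathway are members is therefore given only among its named genes and cannot be set against a background. Of all 1778 named genes tested, 225 were members. The gene lists were also chosen with earlier results of these data known, so such counts are not read as an excess.

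Genes of detoxification held some of the strongest profiles. Ugt35b (Ugt35B1 in current RefSeq) is a UDP-glycosyltransferase, an enzyme that couples sugars to small lipophilic compounds. Its normalized read count was 559.5, 983 and 1299.7 (lowest, median and highest of the 8 early-day libraries) against 168, 225 and 475 in the opposite libraries, and the groups did not overlap. The fitted amplitude was 1.07 ± 0.11 (SE, n = 24 libraries), a 4.41-fold difference between peak and trough, with a peak at 1.80 h. The amplitude in separate fits was 1.35 on day 1 and 0.79 on day 2.

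Ugt35a (Ugt35A1) lies on chromosome 3R (Release 6, 11170817 to 11172664), 571 bases from Ugt35b (11168503 to 11170246), and its fitted peak was at 0.55 h. Its counts were lower, at 54.7, 73.5 and 139 in early day against 0, 51.7 and 67.6. The library at 0 (12 h of replicate 1) held no read of Ugt35a, and 3 reads, the upper limit taken for a count of 0 (counting error only), would be a normalized count of 3.25 there. Without that library the amplitude was 0.49 ± 0.16, down from 0.92 ± 0.34. The other 5 named UDP-glycosyltransferases tested included 2 with a p under 0.05 and a peak from 6 to 12 h and 3 without a p under 0.05.

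Glutathione S-transferases couple glutathione to reactive compounds, and 3 of 8 named members were in the set. GstE9, of the epsilon class, had 2898, 5004 and 6485 normalized counts in early day and 1445, 2368 and 5546 in the opposite libraries. The groups overlapped through the 12 h (5546) and 36 h (3710) libraries of replicate 1, and the amplitude was 0.68 ± 0.12 with a peak at 4.34 h. GstE9 overlaps imd, and since the strand setting of the counting is not given in the sources used here, reads of the overlap cannot be assigned. GstZ2, of the zeta class, had 236, 739 and 1007 against 181, 325 and 523, and GstE12 6729.9, 12233 and 14945 against 7339, 9591 and 17494. GstE12 was the most abundant of the 3 and had the smallest amplitude, 0.21 ± 0.08. Of 28 named cytochrome P450 genes, Cyp6a9 and Cyp6a22 were members, 5 more met the rule but are named in the article, 8 peaked at other hours and 13 had no p under 0.05. Cyp6a9 had 200.2, 245 and 505 against 127, 157 and 266, and Cyp6a22 188, 351 and 394 against 193, 251 and 328. The amplitude of Cyp6a9, 0.48 ± 0.12, was 0.78 without replicate 1 and 0.18 without replicate 2. The 2 genes lie 5651 bases apart on chromosome 2R.

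Lipid synthesis and storage contributed 4 of 12 named genes of its list. Pcyt2, which activates phosphoethanolamine with CTP for phosphatidylethanolamine synthesis, had 497, 582 and 761 normalized counts in early day against 346, 429 and 562, with an amplitude of 0.34 ± 0.05 and a peak at 4.13 h. It overlaps Pcyt1, so that its reads may include those of the neighbor. mdy (midway), a diacylglycerol acyltransferase that makes triacylglycerol, had 319.5, 532 and 761 against 226, 286 and 447, with its peak at 3.29 h. Jabba and Lsd-1, a histone-docking lipid droplet protein and a perilipin, were more abundant and overlapped between windows: Jabba had 3617, 4990.5 and 6100.4 against 2767, 4138 and 6268, and Lsd-1 1468, 3192 and 4126 against 1136, 2175 and 4499. The other 8 named genes of the list held 2 that peaked from 6 to 12 h and 6 without a p under 0.05.

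CG4825 (Pss in RefSeq) is a phosphatidylserine synthase and was not on that list. Its counts were 667, 811 and 1052 in early day against 395, 528 and 598, without overlap, and its amplitude was 0.41 ± 0.06 with a peak at 1.94 h. CdsA (Cds), which makes the CDP-diacylglycerol needed for phosphatidylinositol, and nes, a lysophospholipid acyltransferase, were chosen after their values were seen. CdsA had 429.7, 669.9 and 877 against 289, 438 and 679, and nes 283, 404 and 548 against 214, 262 and 386. Esyt2, a tether of the endoplasmic reticulum at the plasma membrane that moves lipids between them, had 310.3, 491 and 649 against 204, 337 and 532 and peaked at 5.38 h.

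**Figure D3:**
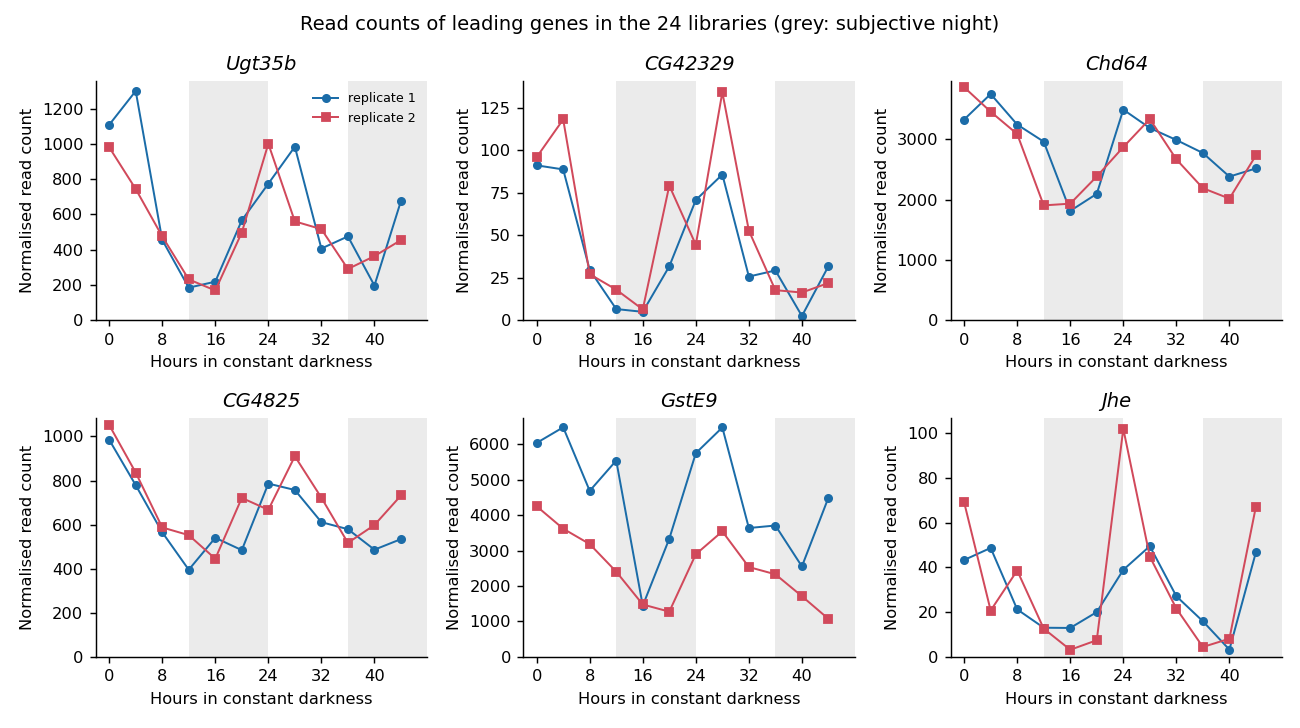
Normalized read count (y axis, from 0) of 6 genes against hours in DD (x axis) in replicate 1 (blue circles) and replicate 2 (red squares), with subjective night in grey. All 6 are high near 0 to 4 h and 24 to 28 h, and GstE9 is lower in replicate 2 than in replicate 1 in nearly every time point.

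Jhe encodes juvenile hormone esterase, which breaks down the hormone. Its counts were low, with 20.7, 46.7 and 102 in early day against 3.14, 10.4 and 15.9 in the opposite libraries, without overlap, and the amplitude was 1.42 ± 0.25 with a peak at 2.06 h. The median at 20 and 44 h was already 33.4, above the medians at 12 and 36 h (12.8) and at 16 and 40 h (5.64). The other 2 named juvenile hormone genes tested had no p under 0.05.

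CG42329 had the largest amplitude, 1.76 ± 0.21, or 11.4-fold between peak and trough at 2.52 h, and few counts: 44.3, 89.8 and 134 in early day against 2.40, 11.3 and 29.2. Its count was 4.85 at 16 h and 31.6 at 20 h in replicate 1, and 6.27 and 79.1 in replicate 2, so the count was above its low level 4 h before the second subjective day in both. Several genes of large amplitude have no role given here, and among them phu had 209, 353 and 1315 against 58, 167 and 759, CG12116 8609.9, 22655 and 47182 against 4041, 9039 and 16484, and CG9377 306, 560.0 and 774 against 117, 197 and 261. CG9377 did not overlap between windows, while phu did, with its highest opposite value at 36 h of replicate 2. CG13283 (Nepl9), named for likeness to the neprilysin metallopeptidases, had 213.3, 335 and 423 against 85.5, 149 and 213.1, so its windows were separated by a margin far below the spread within either. CG17646, an ABC transporter of the G family, had 1426, 1737 and 3343 against 304, 666 and 1817. CG15093, a predicted hydroxyisobutyrate dehydrogenase of valine breakdown, had 297, 537 and 1094 against 125, 221 and 452. CG31729, a predicted phospholipid flippase, had 219, 291 and 511 against 133, 218 and 260.2.

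Actin regulators held 5 of 10 named genes. Chd64, a calponin-like actin-binding protein, had 2872, 3399 and 3866 normalized counts in early day against 1813, 2104 and 2962, and only the 12 h library of replicate 1 (2962) passed the lowest early-day value. Its amplitude was 0.39 ± 0.05, with a peak at 3.50 h. Swip-1, an EF-hand protein that binds actin filaments, had 33.2, 93.9 and 161 against 15.7, 29.6 and 49.5, with an amplitude of 1.08 ± 0.21. cpb, the beta subunit of the capping protein, had 295, 343 and 447 against 207, 247 and 369.5 (amplitude 0.23 ± 0.05, and 0.14 without replicate 2), and coro, a coronin, had 433, 537 and 894 against 319, 430.1 and 561. The fifth is Tm1, a tropomyosin, and of the rest of the list 2 peaked from 18 to 24 h and 3 had no p under 0.05. Drak, a kinase related to death-associated protein kinases that phosphorylates myosin light chain, had 384, 434 and 779.6 against 222, 264 and 330.1, without overlap.

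The secretory pathway was represented by 3 of 5 named coat and fusion genes. Syx18, a SNARE of the endoplasmic reticulum, had 375, 445 and 618 counts against 267, 365 and 441, beta'COP, a subunit of the COPI coat, 510.5, 752 and 1024 against 479.7, 635 and 778, and Sec24CD, a COPII cargo adaptor, 412, 738 and 1041 against 373, 532 and 963. All 3 overlapped between windows, and their amplitudes were 0.29 ± 0.06, 0.20 ± 0.05 and 0.31 ± 0.09. Without replicate 1 the amplitude was 0.19 for Syx18 and 0.09 for beta'COP, and without replicate 2 it was 0.40 and 0.31. Of 10 named genes of folding and the unfolded protein response, P58IPK, a co-chaperone, and PEK, the PERK kinase that phosphorylates eIF2alpha, were members, 1 more met the rule but is named in the article, 2 peaked from 6 to 12 h and 5 had no p under 0.05. P58IPK had 279, 336 and 442 against 195, 271 and 414, and PEK 152, 229.6 and 317 against 150.5, 184 and 237, which is the smaller amplitude (0.19 ± 0.07).

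Mitochondrial genes were found at early-day and at night phases. ATPsynbeta, the catalytic subunit of ATP synthase, was the only member among 21 named respiratory chain genes, 4 others had a p under 0.05 with a peak from 12 to 18 h, and 16 had none. It had 15822, 19497 and 27391 counts in early day against 12171, 16992 and 21091, and its amplitude was 0.21 ± 0.05. Of 5 named mitochondrial carriers, aralar1, which exchanges aspartate for glutamate, and Dic1, which carries dicarboxylates, were members. aralar1 had 1767, 2242 and 2982 against 1234, 1721 and 2132, and Dic1 1559, 2251 and 2582 against 1422, 1719 and 2277, with peaks at 2.27 and 2.14 h. None of 15 named ribosomal protein genes had a p under 0.05. ArgRS, an arginyl-tRNA synthetase, was the only member of 3 named synthetases, with 223, 252 and 295 against 191, 223 and 254.

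Secreted and structural proteins included daw (dawdle), an activin-like ligand and the only member of 4 named activin and BMP genes, with 493, 879 and 1182 counts against 335, 675 and 885. Its separate fits peaked at 2.34 h on day 1 and 8.68 h on day 2, but the test of a difference in rhythm between the days did not pass (edgeR, adjusted p = 0.685). Without replicate 2 its amplitude was 0.21 instead of 0.32. Of 11 named cuticle and chitin genes, 4 were members. TwdlT, a Tweedle cuticle protein, had 41.0, 69.2 and 99.7 against 9.41, 19.5 and 57.4, Cpr49Ae 80.8, 123 and 196 against 31.0, 64.3 and 125, Cpr72Ec 360.1, 1952 and 2860.1 against 261, 799 and 1636, and Idgf1, a chitinase-like growth factor, 422, 488 and 710.4 against 299.8, 385 and 456. All 4 overlapped between windows. None of 4 named pigment genes was a member, of which e and ple could not be, since the article names them. The 6 named clock genes are all named in the article and could not be members either: 4 peaked from 12 to 18 h, cry met the rule's p and peak time, and Clk had no p under 0.05.

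Among markers of other head cells, Eaat2, Indy and Arr1 were members of the set. Eaat2, a glutamate-family transporter used to mark ensheathing glia, peaked at 2.00 h with 419, 652 and 796 counts in early day against 281, 430.2 and 633, and Indy, a citrate transporter used to mark surface glia, at 0.45 h with 255, 451 and 601 against 214, 292 and 389. Arr1, an arrestin of photoreceptors, peaked at 1.47 h with 10636, 13226 and 22641 against 7542, 8937 and 14699. The other 4 named photoreceptor markers did not follow it: Rh6 peaked at 18.7 h, and inaD, Rh5 and chp had no p under 0.05. zyd and wrapper, which mark cortex glia, and NimC1, which marks blood cells, had none either. Their fitted peaks were at 5.35, 15.1 and 5.52 h. Of the paired glial markers, Eaat2, Indy, zyd and e thus had fitted peaks in the hours of the set, and wrapper did not. Whether this has a part in the profiles was not tested. Of 13 photoreceptor markers chosen, 5 (Arr1 and the other 4 above) could be paired with an identifier, none of them at 0 in any library. Their summed normalized count ran from 18878 to 34289 in the early-day libraries (median 20341) and from 15535 to 23257 in the opposite ones (median 21198), so photoreceptor RNA was present in every library, and its part in the early-day profiles was not tested.

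Separate fits to each replicate and each day describe how far the pattern repeated within the data that chose the genes. Peaks of the replicates lay within 4 h of each other for 255 genes (91.4%), and peaks of the days for 259 (92.8%). Over all genes tested, the shares were 36.8% and 36.7%. The peak was from 0 to under 6 h in both replicates for 201 genes, on both days for 203, and in all 4 fits for 170. The largest gap between replicates was 7.16 h and between days 6.33 h. The median amplitude was 0.32 in replicate 1 and 0.37 in replicate 2, and 0.36 on day 1 and 0.33 on day 2. Over all genes, replicate 2 was also higher, at 0.25 against 0.19.

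**Figure D4:**
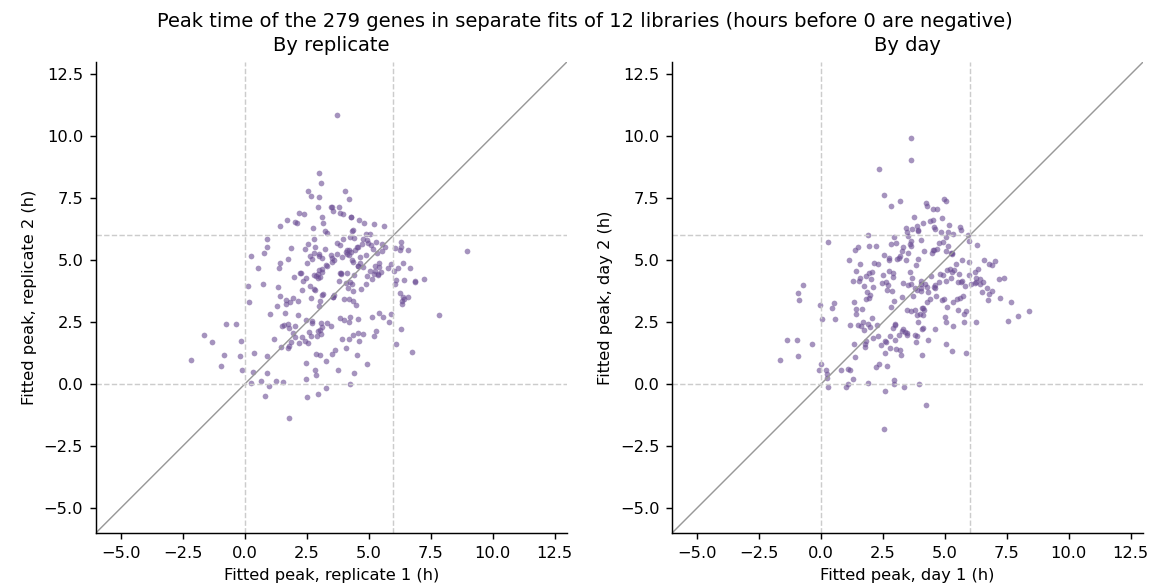
Fitted peak (hours, those before 0 h shown as negative) of the 279 genes in replicate 1 against replicate 2 and on day 1 against day 2, each fit using 12 libraries, with the diagonal in grey and 0 and 6 h dashed. The points crowd around the diagonal within a few hours, as the rule makes likely.

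Further tests asked whether the genes differed by day, by shape or by replicate. The rule did not select on these terms directly, but the replicate term was part of its fit. The other terms were left in the residual of its F test, so genes with large such effects were less likely to be members. The median residual SD was 0.34 in the 279 and 0.41 in all genes. The shares called below are therefore not independent of the choice, and nothing is read from them against the shares of all genes. The tests were fitted with edgeR's quasi-likelihood test over all 9392 genes with Benjamini-Hochberg adjustment. Between the days (24 to 44 h against 0 to 20 h) no gene of the 279 passed an adjusted p of 0.05 (0.0% of all genes did). At an unadjusted p under 0.05 there were 35 (12.5%, against 15.9% of all genes), 30 of them lower and 5 higher on day 2, against 7.52% and 8.42% of all genes, and DESeq2 called none of the 279 after adjustment and 58 of all genes. The median difference was -0.11 (log2, day 2 minus day 1) over the 279 and -0.02 over all genes. No gene of the 279 passed the adjusted test, and no direction is read for the set.

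A 12 h component alters the shape of the daily profile and need not show as a second peak. After adjustment it passed in none of the 279 by edgeR or DESeq2. The unadjusted edgeR p was under 0.05 in 24 (8.60%, against 8.13% of all genes). A difference of the 24 h rhythm between the days passed in none by either tool, with 15 (5.38%, against 6.82%) unadjusted, and 6 of all genes by DESeq2. A difference of the 24 h rhythm between the replicates passed in none by either tool, with 8 (2.87%, against 3.06%) unadjusted. The smallest adjusted p of any of the 279 was 0.261 for the day difference, 0.587 for the 12 h component, 0.685 for the rhythm by day and 0.985 for the rhythm by replicate. A p that misses the threshold does not show that the days or replicates were alike.

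Levels differed between the biological replicates for many of the genes. Since the rule's fit removed this difference, and 203 genes met the rule without the replicate term, the share called here is not independent of how the genes were chosen and nothing is read from it against the share of all genes. Of the 279, 108 (38.7%) had an adjusted p under 0.05 (edgeR), 52 higher and 56 lower in replicate 2, against 33.2% of all genes tested, 17.6% higher and 15.5% lower. At an unadjusted p under 0.05 there were 138 (49.5%, against 42.2%), and DESeq2 called 115 after adjustment. The direction followed abundance: of the 59 genes with a mean of 1000 counts or more, 30 were lower and 4 higher in replicate 2, and of the 220 less abundant ones 26 were lower and 48 higher. All genes tested split the same way, with 35.5% lower and 11.7% higher among the 1380 abundant ones, and 12.1% lower and 18.6% higher among the 8012 others. The replicates also differ in sequencing runs, and crosses and runs cannot be told apart.

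The 5 genes of smallest adjusted p were all higher in replicate 2. FBgn0261955, which has no symbol in the tables used here, had 231, 440.0 and 798 normalized counts (lowest, median and highest of 12 libraries) in replicate 1 and 883, 1605 and 2060.1 in replicate 2, so the replicates did not overlap. The 16 h library of replicate 1, whose label is like those of replicate 2, held 778, against 231 at 40 h. Without it the amplitude of this gene was 0.71 instead of 0.59. The difference was 1.64 (log2, edgeR, adjusted p = 2.8e-06), with an SE of 0.16 in the least squares fit. FBgn0037556, also without a symbol, differed by 1.47 (edgeR, adjusted p = 2.01e-05). Amph, amphiphysin, a membrane-bending protein, had 231, 297 and 461 in replicate 1 and 301, 534 and 741 in replicate 2, a difference of 0.76 (log2, edgeR, adjusted p = 6.04e-05) with overlap.

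Members of the groups above were among those that differed. GstE9 was lower in replicate 2 by 0.85 (log2, edgeR, adjusted p = 0.000568), ATPsynbeta by 0.49 (0.000615), cpb by 0.42 (0.000533) and Sec24CD by 0.72 (0.000216). Eaat2, with 281, 419 and 616 counts in replicate 1 and 441, 599 and 796 in replicate 2, was higher by 0.50 (0.000498), and Esyt2 was higher by 0.50 (0.00123). Dif, a transcription factor of the Toll pathway, and wnd, a kinase of axon injury signaling, were named after their values were seen and were higher by 0.78 and 0.68 (edgeR, adjusted p = 0.000398 and 0.000418).

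**Figure D5:**
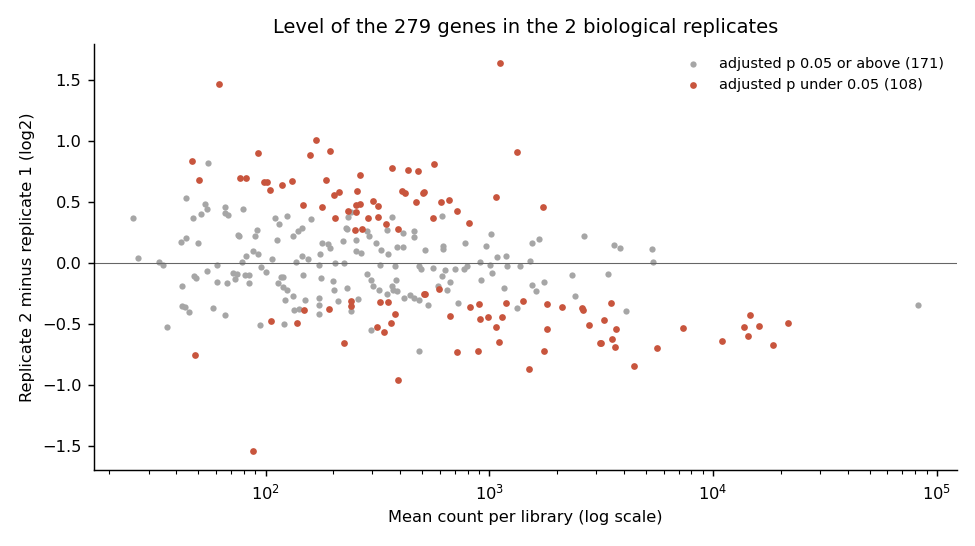
Difference in level between the biological replicates (log2, replicate 2 minus replicate 1, y axis) against mean count per library (log scale, x axis) for the 279 genes, with the 108 genes of adjusted p under 0.05 (edgeR) in red and the other 171 in grey. Among genes of 1000 counts or more, most red points lie below 0, and among the rest most lie above.

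In the genome (Release 6, RefSeq), the 225 named genes comprised 224 protein-coding genes and 1 long noncoding RNA. Chromosome arm 2L held 26.7% of them against 19.3% of all named genes tested, and X 7.11% against 14.7%, while 2R and 3R held 21.3% and 23.6% against 20.7% and 24.7%. Only 1771 of the genes tested had a name and position, and the name tables lean toward genes with rhythms. These shares are therefore not read as traits of the set. Another annotated gene overlapped 126 of the 225, whose reads cannot be assigned where the counting ignored strand. Neither such overlaps nor close neighbors were counted over all genes tested. Besides Ugt35b with Ugt35a and Cyp6a22 with Cyp6a9, 12 more pairs of neighboring members lay within 10 kb. Their peaks were up to 3.83 h apart: CG31937 and CG17646 peaked at 4.06 and 2.89 h across a gap of 1454 bases, and Piezo, a mechanosensitive channel, and CG8475 at 2.03 and 3.25 h across 671 bases. CG11210 (Tmem63) with Cul4, and AGO2, the Argonaute of small interfering RNAs, with CG7739 share 46 and 316 bases, and whether reads there were counted is not given in the sources used here.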

How the data were processed

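Ribosome-bound RNA was sequenced at 12 time points in 2 biological replicates, with 2 technical data sets for each, 48 in all. The 2 data sets of a time point and replicate are called 1 library here, which gives 24 libraries. In replicate 2 the labels of the 2 data sets carry different letters (c and g), as do those of 16 h in replicate 1 (d and e). The labels do not say whether these pairs are 1 preparation sequenced again. The deposited values are raw counts of reads per gene, which the authors made by aligning single-end reads to BDGP Release 6 with TopHat 2.0.9 and counting with HTSeq 0.6.1. The article states that gene identifiers of the counts were then updated to a FlyBase release. The HTSeq counting mode and strand setting are not given in the sources used here. Technical data sets were summed, genes with a mean of 20 counts or more were kept, counts were scaled by median-of-ratios size factors, and 1 was added before log2. The rule's fit has a replicate term, since the article states that replicates came from independent crosses. Deviations of same-replicate libraries at different times correlated at a median r of 0.186 (66 pairs, -0.719 to 0.66). Tests used edgeR 4.0.16 with TMM, glmQLFit and glmQLFTest on the counts in R 4.3.3, and DESeq2 1.42.0 as an alternative. Python 3.11.15, numpy 2.4.6, scipy 1.17.1, pandas 2.3.3 and matplotlib 3.10.9 did the rest. Depth was 8203989 to 32826712 counts in replicate 1 and 6371034 to 37267216 in replicate 2. The rule's fit and edgeR's fits of the day difference and of the 24 h rhythm were run on simulated counts. The other fits were not.

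Members and gene lists were chosen with earlier results of these data known. Named genes were the 12 of smallest p, the 10 of largest amplitude with a mean of 200 counts or more, up to 4 of each gene list, those nearest each limit, and up to 5 per test with an adjusted p under 0.05. Genes named outside this rule are marked as such. Of the 5 for the replicate difference, 2 unnamed ones are not listed. Symbols came from the article's gene tables, 1 of which was available only in part, and from RefSeq, and exclusion of genes named in the article could be checked only for genes with a symbol. Promoter sequences and motifs were not analysed here.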

Additional observations from a re-analysis of the deposited data

How the results depend on the processing

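The number of genes that met the rule, 279, stayed within 1.5 times of that value for TMM factors (256 genes, 250 shared with the 279), quantile normalization (260, 214 shared), a mean of at least 1 count (307) or 50 counts (263), a pseudocount of 0.5 (278), edgeR's test of cosine and sine (241, 226 shared), data sets 1 and 3 only (252, 173 shared) 2 and 4 only (261, 231 shared), without the 28 h library of replicate 2 (261), without the 16 h library of replicate 1 (348) or without both (306). Without the replicate block, 203 genes met it, 200 of them shared. Leaving out a replicate gave 157 to 235 genes: 235 without replicate 1, of which 107 are shared, and 157 without replicate 2, of which 91 are shared, so most genes do not pass in 12 libraries alone. The count of genes differing between replicates was 97 to 123 over DESeq2, size factors, the lower filter and the libraries left out, against 108, and 94 to 108 of the genes were shared. None of the 4 other tests called a gene of the 279 under any alternative run. Of 46 named amplitudes, none moved by more than its SE under TMM factors, without the replicate block or without the 28 h library of replicate 2, 1 moved without the 16 h library of replicate 1, 13 without replicate 1 and 15 without replicate 2. Leaving out both libraries, and the 12 h library for Ugt35a, was chosen after seeing the data. Pairing by replicate number rests on the crosses, and leaving out the block changed no call of the day or 12 h tests. Counts near 20 limit genes such as PK1-R and Jhe.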
